A study of Mus musculus with 12 samples.

Results

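In bone marrow–derived macrophages (BMDMs), the mRNA of 7 genes outside the cytokine families was higher with LPS, and their levels with LPS were lower when 3′-sialyllactose (3′SL) was added. The genes are Fam102b, Tagap, Gpd2, Rasgrp1, Lmo4, Xkr8, and Fam20c. They are 7 of the 43626 genes in the count tables and were picked because some fits on these same libraries called them lower with LPS + 3′SL than with LPS. Their difference between those 2 conditions is therefore described here without a test. Their response to 3′SL without LPS compares neither of those conditions. That response was tested, as was their response to LPS averaged over 3′SL, for the 6 genes that were also expressed without LPS. The fits took each gene's spread from all 12 libraries, as did those that chose the genes, so the p-values are not fully independent of the choice.

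3′SL is a sialylated milk sugar, one of the human milk oligosaccharides (HMOs), and the study asked how it alters the mRNA response of macrophages to LPS, the bacterial product that Toll-like receptor 4 recognizes. RNA-Seq was done on mouse BMDMs, macrophages grown from bone marrow in culture, in 4 conditions of 3 libraries each, 12 in all. Control cells received PBS. The other conditions were 3′SL alone (HMO in the labels), LPS alone, and both together (LPS + 3′SL). LPS was used at 10 ng/mL, 3′SL at 100 μg/mL, and RNA was taken after 6 hours. Doses and time are those of the study's methods. The treatment text attached to the libraries describes injections into mice and not this culture, and it gives neither strain nor age for the bone marrow. The study calls the RNA-Seq samples of its heatmaps independent biological duplicates, and gives n = 3 for other panels of the same figure. No label ties a library to an animal or culture, so p-values measure the spread between these libraries, which may in part be technical.

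The 7 genes serve different steps of a cell's response. Rasgrp1 encodes an exchange factor that activates Ras when the membrane lipid diacylglycerol is made after a receptor fires, and it is best known from T cells and mast cells. Tagap encodes a GTPase-activating protein that was named after T cell activation. Gpd2 encodes the mitochondrial glycerol 3-phosphate dehydrogenase, which passes electrons from the cytosol into the respiratory chain. Lmo4 encodes a LIM-only protein that joins transcription factors to the adaptor LDB1. Xkr8 encodes a membrane protein that scrambles phospholipids and exposes phosphatidylserine on dying cells. Fam20c encodes the Golgi kinase that phosphorylates many secreted proteins. Fam102b is a little-studied relative of Fam102a, a gene first found by its induction with estrogen.

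Each library held 20411741 to 26851890 reads on genes. The libraries fell into 3 sets of 4 consecutive library numbers with 1 library of each condition, in which libraries deviated together from their condition means (mean correlation 0.596 within sets and -0.346 between sets). In every condition, the library of set 3 differed most in its counts from the others. A summed list of 8 stromal genes was at 647 to 746 CPM, which are reads scaled to library size, in set 1, 28.9 to 41.6 CPM in set 2, and 70.0 to 110 CPM in set 3, with similar sums for all 4 conditions of a set. Their part in the results was not tested, but the changes are also given within sets. The 8 macrophage markers, such as Adgre1 and Csf1r, were all present and summed to 18988 to 30642 CPM. The 8 T cell markers summed to 0.304 to 0.954 CPM without LPS and 2.39 to 6.26 CPM with LPS, with the defining genes Cd3e and Cd3g at 0 in every condition. The 5 B cell markers summed to 0.733 to 2.75 CPM and the 5 neutrophil markers to 34.3 to 267 CPM. The 4 mast cell markers summed to at most 0.214 CPM, with Mcpt4, Tpsb2, and Cma1 at 0 in every condition. In such bulk RNA, fewer cells of a type and less RNA per cell cannot be told apart.

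Promoter windows from RefSeq (GRCm38.p6, 250 bases before to 50 after a start site) were found for 6 of the 7 genes, 9 windows in all because Gpd2 has 2 and Lmo4 has 3; Xkr8 had none in the table. They are shown because these genes were all higher with LPS. The first 280 bases are printed 5′ to 3′ for Fam102b (chr3:109027578-109027857, minus strand), Tagap (chr17:7925750-7926029, plus strand), 1 of the Gpd2 windows (chr2:57238132-57238411, plus strand), and Rasgrp1 (chr2:117342848-117343127, minus strand). Capitals mark the searched motifs.
Fam102b: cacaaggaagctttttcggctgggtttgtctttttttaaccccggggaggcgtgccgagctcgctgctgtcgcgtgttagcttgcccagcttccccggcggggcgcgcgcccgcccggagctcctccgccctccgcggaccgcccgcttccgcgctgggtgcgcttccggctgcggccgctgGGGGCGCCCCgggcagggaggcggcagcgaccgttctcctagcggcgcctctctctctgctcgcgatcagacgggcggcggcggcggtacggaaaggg
Tagap: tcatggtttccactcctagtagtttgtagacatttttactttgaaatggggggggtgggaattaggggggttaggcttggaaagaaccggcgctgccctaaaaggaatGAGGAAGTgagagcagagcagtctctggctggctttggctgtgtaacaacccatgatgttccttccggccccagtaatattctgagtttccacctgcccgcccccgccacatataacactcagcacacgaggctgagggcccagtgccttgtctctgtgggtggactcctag
Gpd2: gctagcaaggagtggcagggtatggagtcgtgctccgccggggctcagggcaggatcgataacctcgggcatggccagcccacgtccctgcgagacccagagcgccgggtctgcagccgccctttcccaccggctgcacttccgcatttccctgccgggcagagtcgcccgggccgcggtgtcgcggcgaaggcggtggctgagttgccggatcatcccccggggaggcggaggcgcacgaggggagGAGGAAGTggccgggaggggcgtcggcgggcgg
Rasgrp1: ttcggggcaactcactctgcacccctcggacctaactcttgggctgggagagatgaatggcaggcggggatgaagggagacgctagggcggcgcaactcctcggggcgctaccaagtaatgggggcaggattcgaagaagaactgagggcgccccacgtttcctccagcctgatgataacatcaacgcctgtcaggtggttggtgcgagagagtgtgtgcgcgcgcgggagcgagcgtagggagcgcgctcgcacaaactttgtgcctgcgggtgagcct
The Fam102b window held the NF-κB motif, in a stretch that reads as the motif on both strands, beginning 68 bases before the start. The Tagap window held the PU.1 motif GAGGAAGT beginning 142 bases before the start, and the Gpd2 window shown held the same letters from 3 bases before it. The C/EBP motif TTGCNNAA was found in the other Gpd2 window and in 1 Lmo4 window. Neither AP-1 (TGANTCA), CRE (TGACGTCA) nor ISRE letters were found in any of the 9, and the Rasgrp1 and Fam20c windows held none of the 6 motifs. Both strands were searched over the whole windows, and matches to different motifs did not overlap. Of all 32851 windows of this length, 8.46% held the NF-κB motif, 3.20% PU.1, 10.8% C/EBP, 7.81% AP-1, 1.79% CRE, and 3.44% ISRE. In base composition, the windows ranged from 53.0% GC (Tagap and 1 Gpd2 window) to 81.3% GC (1 Lmo4 window) beside a median of 52.7% over all windows. Such a match is a run of letters and not a measured binding site.

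LPS raised Fam102b, Tagap, Gpd2, Lmo4, Xkr8, and Fam20c when the conditions with LPS were compared with those without, with at least a 1.5-fold change and an adjusted p below 0.05 (edgeR's quasi-likelihood test, Benjamini-Hochberg over 14308 genes). Across all genes tested, 18.1% passed in this direction and 21.5% in the other. For all members but Fam20c, every library with LPS was above every library without it, as for 18.1% of all genes. Fam20c overlapped, with 0.65 to 1.16 (log2) within the 3 sets. The fitted changes ran from 1.96-fold for Fam20c to 193-fold for Rasgrp1. Rasgrp1 entered the fit only through its reads in the conditions with LPS, so its change is given as a description with no test. The average does not use the difference between LPS + 3′SL and LPS. Its p-values, however, rest on a spread fitted over the same 12 libraries as the choice and are not fully independent of it. A gene must also be expressed with LPS to be called lower there. The number of members raised by LPS was therefore favored by the choice and is no independent evidence about them. Scaling to total counts in place of TMM factors shifted the median of all genes by -0.56 (log2), with 1567 genes called higher and 6791 lower in place of 2595 and 3080, and under it Fam20c no longer passed.

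**Figure D1:**
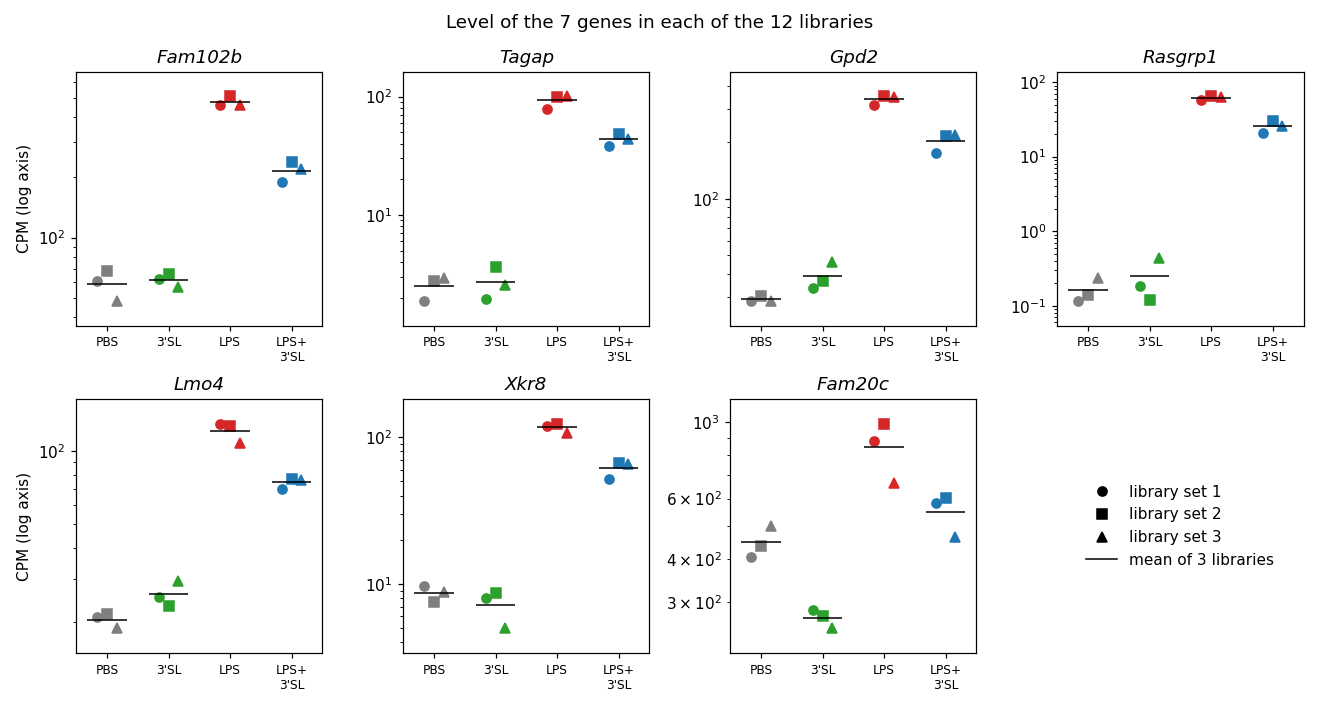
CPM on a log axis for each gene in each of the 12 libraries, with 1 panel per gene, conditions on the x axis, marker shapes for the 3 library sets, and lines at the means of 3 libraries. In 6 panels both LPS conditions lie above both conditions without LPS, and in every panel all LPS + 3′SL libraries lie below all LPS libraries; for Fam20c the 3′SL libraries (252 to 285 CPM) also lie below the PBS libraries (406 to 500 CPM).

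Rasgrp1 (ENSMUSG00000027347.14; GRCm38 chr2:117279993-117343001, minus strand) was nearly absent without LPS. It had 4, 4, and 7 reads in the PBS libraries and 5, 3, and 11 reads with 3′SL, which is 0.164 ± 0.0639 and 0.248 ± 0.168 CPM (SD, n = 3). With LPS it was at 57.3, 64.2, and 63.0 CPM, and with LPS + 3′SL at 20.9, 29.7, and 26.0 CPM. No LPS + 3′SL library reached the lowest LPS library, and none came near the conditions without LPS. The fitted change with LPS was 7.59 ± 0.25 (log2 ± SE), from few reads in the conditions without LPS and with no test. 3′SL alone gave 0.59 ± 0.45 (log2, from these few reads and with no test), with 2 of 3 sets higher. Beside LPS, 3′SL left Rasgrp1 2.41-fold lower, or 41.3% of its excess over PBS. The sum of the T cell markers moved with LPS as well. Of those 8, only 2 had enough reads to be fitted, Lck and Cd247, with at most 66 and 58 reads in a library. Lck was at 0.218 CPM with PBS and 2.49 CPM with LPS, and Cd247 at 0.0734 and 1.92 CPM. Their fitted changes with LPS were 4.39 and 3.02 (log2), from few reads without LPS and with no test. Cd3e and Cd3g were at 0. The part of these markers in the Rasgrp1 and Tagap values was not tested.

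None of the 3 relatives of Rasgrp1 rose with LPS. LPS lowered Rasgrp3, the exchange factor known from B cells, by -4.78 ± 0.50 (log2, adjusted p = 1.36e-05, edgeR), from 61.1 ± 26.3 CPM with PBS to 1.23 ± 0.693 CPM. It also lowered Rasgrp2 (-0.78, adjusted p = 0.00169), whereas Rasgrp4 did not pass (0.11, adjusted p = 0.733). Per kilobase of exon, Rasgrp1 with LPS was at 11 ± 0.656 CPM/kb, the lowest level of the 7 genes in that condition. Of other Ras exchange factors and Ras proteins, Sos1 rose with LPS (1.15) and Mras fell (-1.10). Sos1 no longer passed with total-count scaling. Of the diacylglycerol kinases, which remove the lipid that Rasgrp proteins bind, 8 were tested. LPS raised Dgka (1.88) and Dgkh (2.64) and lowered Dgkd (-1.37) and Dgki (-2.29, at most 29 reads in a library).

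Tagap (ENSMUSG00000033450.7; GRCm38 chr17:7926000-7934897, plus strand) had the same order of conditions as Rasgrp1 at a higher starting level. It was at 1.87, 2.77, and 2.93 CPM with PBS and 1.93, 3.66, and 2.54 CPM with 3′SL. It was at 78.9, 100.01, and 100.3 CPM with LPS and 38.5, 48.5, and 43.6 CPM with LPS + 3′SL. The PBS and 3′SL libraries overlapped, and the other conditions were apart from them and from each other. LPS raised Tagap by 4.61 ± 0.18 (log2, adjusted p = 2.27e-08, edgeR), and 3′SL alone gave 0.11 ± 0.24 (adjusted p = 0.934). Beside LPS, Tagap was 2.14-fold lower with 3′SL and kept 45.3% of its excess over PBS. These counts are uncertain in part. Of the 50-base words of its transcripts, 57.5% also occur in other genes, mainly in its near copy Tagap1, and 23.2% of its exon bases overlap the antisense gene E430024P14Rik. Tagap1 fell with LPS (-0.96, adjusted p = 8.95e-04), from 6.84 to 3.84 CPM, the opposite direction of Tagap. E430024P14Rik was at 0.0804 CPM with PBS, 1.91 CPM with LPS, and 1.13 CPM with LPS + 3′SL.

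Most of the other tested GTPase-activating proteins of the Arhgap group and Tagap1 that changed went down with LPS. Of 27 tested, 13 fell and 3 rose, beside 21.5% and 18.1% of all genes, with a median of -0.55 beside -0.07 over all genes. With total counts, 20 fell and 2 rose, beside 6791 and 1567 of the 14308 genes. Arhgap19 (-3.68) and Arhgap18 (-2.68) fell most, and Arhgap31 (1.40), Arhgap17 (1.21), and Arhgap26 (1.15) rose, the last not with total counts. None of the 27 passed for 3′SL, with or without LPS, in edgeR, where no gene at all passed (0%).

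Gpd2 (ENSMUSG00000026827.8; GRCm38 chr2:57237635-57370719, plus strand) was at 28.6, 30.5, and 28.6 CPM with PBS and 33.7, 36.4, and 46.3 CPM with 3′SL. With LPS it was at 314, 350, and 348 CPM, and with LPS + 3′SL at 174, 216, and 220 CPM. No 2 conditions overlapped, and Gpd2 was the gene with the tightest PBS libraries, at a coefficient of variation of 3.79%. LPS raised it by 2.96 ± 0.10 (log2, adjusted p = 1.27e-08, edgeR). 3′SL alone gave 0.41 ± 0.13 with every 3′SL library above every PBS library, as for 9.02% of all genes, but this did not pass (adjusted p = 0.381). With the library sets as a replicate block the change was 0.40 (log2, adjusted p = 0.0376, edgeR), still under the 1.5-fold minimum. Beside LPS, Gpd2 was 1.66-fold lower with 3′SL, in the opposite direction of 3′SL alone, and kept 56.5% of its excess over PBS. Its exons overlap the antisense gene A930012O16Rik by 7.44%, which had at most 13 reads in any library.

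The cytosolic partners of Gpd2 in the glycerol phosphate shuttle went the other way with LPS. Gpd1, which makes glycerol 3-phosphate from dihydroxyacetone phosphate, fell by 1.75 on the log2 scale (adjusted p = 6.21e-05, edgeR) and its relative Gpd1l fell by 1.35 (adjusted p = 2.08e-04). Gpd1 was low throughout, at 3.57 ± 0.970 CPM with PBS and 0.862 ± 0.108 CPM with LPS, with as few as 12 reads in a library. Gpd1l was at 47.9 ± 7.44 and 15.1 ± 4.28 CPM. Gk, the kinase that makes glycerol 3-phosphate from glycerol, rose by 2.36 (adjusted p = 3.31e-06), from 26.2 ± 4.66 to 155 ± 60.0 CPM. Of the malate-aspartate shuttle, Slc25a12 rose (1.79), Slc25a13 (-1.61) and Got1 (-0.98) fell, and Mdh1, Mdh2, Got2, and Slc25a11 did not pass. The 11 shuttle genes tested outside the 7 therefore split into 2 that rose and 5 that fell, Gpam (-0.70) included. Of all genes, 18.1% rose and 21.5% fell. With total counts the split was 2 and 8, beside 1567 and 6791 of the 14308 genes.

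Lmo4 (ENSMUSG00000028266.13; GRCm38 chr3:144188530-144205220, minus strand) was at 20.9, 21.5, and 18.8 CPM with PBS and 25.3, 23.2, and 29.3 CPM with 3′SL. With LPS it was at 129, 126, and 108 CPM, and with LPS + 3′SL at 69.6, 77.1, and 76.3 CPM. As with Gpd2, no 2 conditions overlapped, and every 3′SL library was above every PBS library, as for 9.02% of all genes. LPS raised Lmo4 by 2.05 ± 0.08 (log2, adjusted p = 2.47e-08, edgeR). 3′SL alone gave 0.35 ± 0.11, higher in all 3 sets, and did not pass (adjusted p = 0.375). Beside LPS, it was 1.63-fold lower with 3′SL and kept 53.5% of its excess over PBS. LPS lowered 2 of the adaptors that Lmo4 works with, Ldb1 (-0.96, adjusted p = 6.91e-07, edgeR) and Ssbp3 (-1.60, adjusted p = 3.19e-05). Lmo2, the other LIM-only gene at a high level, stayed below the 1.5-fold minimum at 0.58 (log2), and Lmo1 and Lmo3 were at 5 reads or fewer in every library.

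Xkr8 (ENSMUSG00000037752.4; GRCm38 chr4:132724897-132732546, minus strand) was at 9.73, 7.51, and 8.87 CPM with PBS and 8.0, 8.63, and 4.97 CPM with 3′SL. With LPS it was at 119, 124, and 108 CPM, and with LPS + 3′SL at 51.9, 66.7, and 65.4 CPM. The conditions without LPS overlapped, and each condition with LPS was clear of all others. LPS raised Xkr8 by 3.42 ± 0.14 (log2, adjusted p = 2.77e-08, edgeR). 3′SL alone gave -0.27 ± 0.19 (adjusted p = 0.680), with set 2 in the opposite direction from the others. Beside LPS, Xkr8 was 1.91-fold lower with 3′SL and kept 48.6% of its excess over PBS. Its membrane partners Bsg (0.37) and Nptn (-0.13) stayed below the 1.5-fold minimum. Among other scramblases and flippases, LPS raised Plscr1 (1.39), Atp11b (1.16), and Atp11a (0.70) and lowered Xk (-1.92) and Plscr4 (-0.96). The flippases Atp11a and Atp11b no longer passed with total-count scaling.

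Fam102b (ENSMUSG00000040339.6; GRCm38 chr3:108970997-109027607, minus strand) was at 60.6, 68.0, and 48.1 CPM with PBS and 61.8, 65.6, and 56.6 CPM with 3′SL. With LPS it was at 460, 508, and 459 CPM, and with LPS + 3′SL at 190, 239, and 220 CPM. PBS and 3′SL could not be told apart by their ranges, and LPS + 3′SL lay between them and LPS in every set. LPS raised Fam102b by 2.42 ± 0.10 (log2, adjusted p = 2.88e-08, edgeR), and 3′SL alone gave 0.06 ± 0.14 (adjusted p = 0.938). Beside LPS it was 2.20-fold lower with 3′SL. It kept 37.8% of its excess over PBS. Its relative Fam102a went the other way, since LPS lowered it from 43.8 ± 4.24 to 5.84 ± 1.81 CPM (-2.72 ± 0.18 averaged over 3′SL, adjusted p = 4.42e-07).

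Fam20c (ENSMUSG00000025854.11; GRCm38 chr5:138754514-138810077, plus strand) stood apart from the other 6 genes. It was high without LPS, at 406, 438, and 500 CPM with PBS, and lower with 3′SL alone, at 285, 273, and 252 CPM. With LPS it was at 883, 989, and 667 CPM, and with LPS + 3′SL at 582, 604, and 465 CPM. The LPS + 3′SL libraries overlapped the PBS libraries, and both 3′SL conditions lay fully below their counterparts without 3′SL. LPS raised Fam20c by 0.97 ± 0.12 (log2, adjusted p = 3.21e-05, edgeR), but with total-count scaling the change was 0.42 (adjusted p = 0.0332) and under 1.5-fold. 3′SL alone gave -0.73 ± 0.16, which did not pass in edgeR (adjusted p = 0.258). The same change passed in DESeq2 (adjusted p = 0.00567; 0.147% of all genes called lower) and in edgeR with the library sets as a replicate block (adjusted p = 0.0126; 0.860% called lower), and in edgeR without library set 3 (-0.62, adjusted p = 0.0149). DESeq2 and the block are also the fits by which the members were picked, so these calls are no independent support. Every 3′SL library was below every PBS library, as for 8.53% of all genes. Beside LPS, Fam20c was 1.54-fold lower with 3′SL and kept 25.7% of its excess over PBS. Its fold with LPS was 1.89 without 3′SL and 2.04 beside it.

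Among 7 tested secretory kinases outside the 7 genes, LPS raised Fam20b (0.88, adjusted p = 4.86e-07), the kinase of the proteoglycan linker, and it lowered Fam198b (-2.72), Pomk (-1.11), and Dipk2a (-0.87). Fam20a, the pseudokinase that partners Fam20c, was at 2.54 ± 2.07 CPM with PBS and did not pass (-0.33, adjusted p = 0.723). None of these kinases passed for 3′SL in edgeR, where no gene at all passed (0%). With total-count scaling, Fam20b no longer passed.

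**Figure D2:**
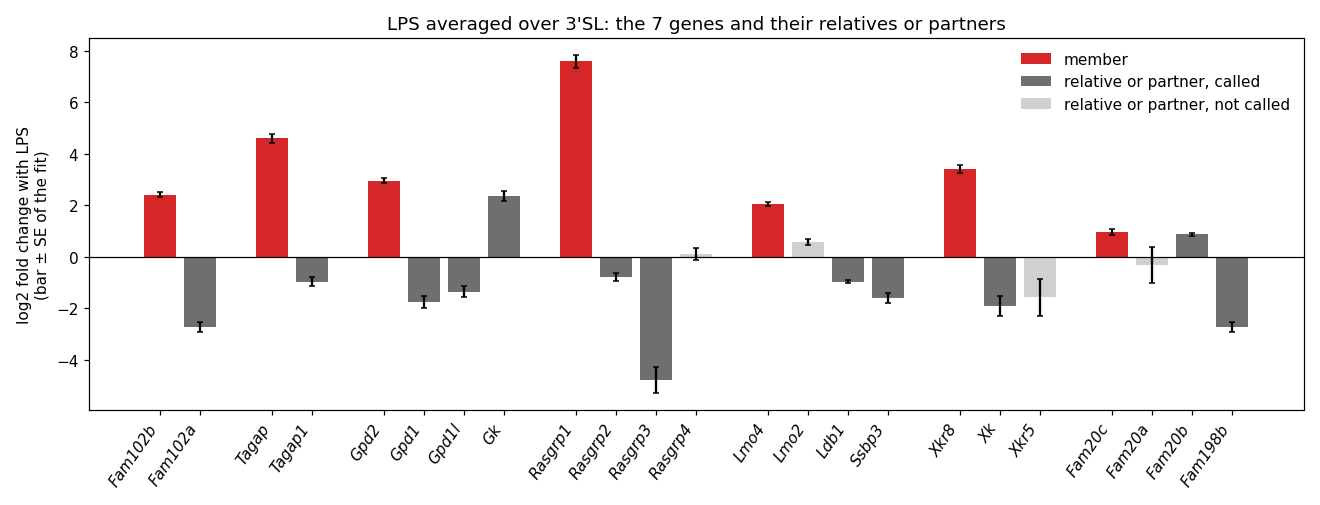
Log2 fold change with LPS averaged over 3′SL, with bars at the fitted change and error bars at its SE, for the 7 genes (red) and their nearest relatives or partners (dark gray where called, light gray where not). All 7 red bars point up, whereas Fam102a (-2.72), Tagap1 (-0.96), Gpd1 (-1.75), Rasgrp3 (-4.78), and Ldb1 (-0.96) point down and Gk (2.36) points up.

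Over all 86 tested relatives and partners, 14 rose and 32 fell with LPS, beside 18.1% and 21.5% of all genes. With DESeq2's size factors, 16 rose and 32 fell, beside 2711 and 2876 of the 14308 genes. With total counts, 9 rose and 49 fell, beside 1567 and 6791 genes. The median log2 fold change of the 86 with TMM factors was -0.20 beside -0.07 over all genes. None of the 86 passed in either 3′SL comparison in edgeR, but neither did any other gene (0%), the 7 included. Medians of the 86 were -0.03 for 3′SL alone and 0.00 beside LPS. The 7 genes themselves had a median of -0.93 beside LPS, fixed by their choice.

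Without LPS, 3′SL changed none of the 6 genes tested at the thresholds in edgeR, and Rasgrp1 is described only. No gene at all passed in that comparison (0% called, with 1439 of 14308 at an unadjusted p under 0.05), while DESeq2 called 88 and edgeR with the library sets as a replicate block called 406. Fam20c was the only member that either of these called. The 7 changes, Rasgrp1 (0.59) included, lay between -0.73 and 0.59 with a median of 0.11 (log2), 5 above 0 and 2 below. 3 directions turned when 1 library was left out. Fam102b was at -0.067 without PBS replicate 3, Tagap at -0.07 without PBS replicate 1 and -0.17 without 3′SL replicate 2, and Rasgrp1 at -0.11 without 3′SL replicate 3. The standard error of the 3′SL change without LPS was 0.11 to 0.24 (log2) for 6 genes and 0.45 for Rasgrp1, which has few reads there.

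**Figure D3:**
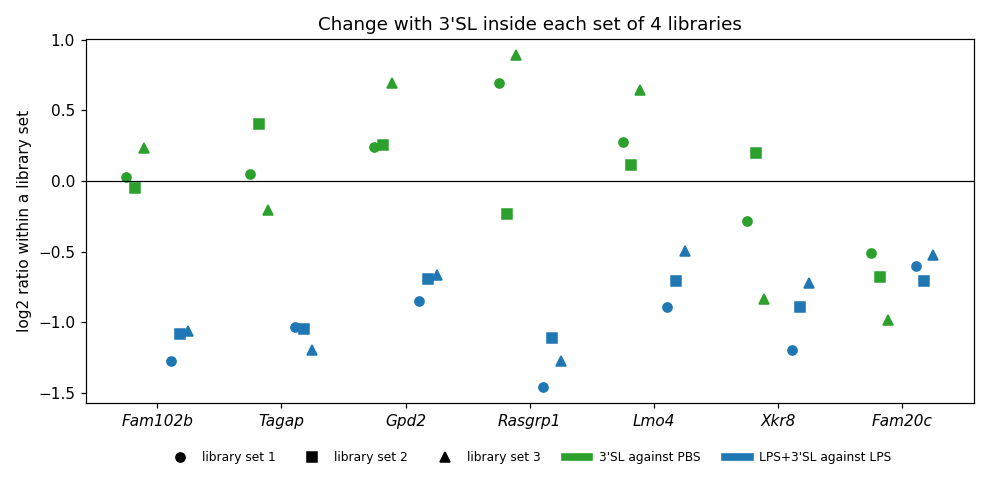
Log2 ratio within each library set for 3′SL against PBS (green) and LPS + 3′SL against LPS (blue), with 1 marker per set and gene. All 21 blue points lie below 0, between -1.46 and -0.50, and the green points lie on both sides of 0 for Fam102b, Tagap, Rasgrp1, and Xkr8, all above it for Gpd2 and Lmo4, and all below it for Fam20c.

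With LPS, each gene was lower with 3′SL in all 3 sets, and no LPS + 3′SL library reached the lowest LPS library for any of the 7, as for 6.50% of all genes. This is the comparison that chose them, so it is given without a test. Rasgrp1 (log2 fold change -1.27 ± 0.24), Fam102b (-1.14 ± 0.14), and Tagap (-1.10 ± 0.21) were the lowest, followed by Xkr8 (-0.93 ± 0.18), Gpd2 (-0.73 ± 0.13), Lmo4 (-0.70 ± 0.11), and Fam20c (-0.62 ± 0.16). Fam20c lay just inside the 1.5-fold minimum at 1.54-fold, and fell outside it with total counts (-0.53), without LPS replicate 2 (-0.49), without LPS + 3′SL replicate 3 (-0.51), and without library set 2 (-0.57). The call depended on the fit. edgeR without a block called no gene in this comparison (0%, with 995 at an unadjusted p under 0.05), DESeq2 called 113, of which 66 were lower (0.461% of all genes), and edgeR with the library sets as a replicate block called 207, of which 109 were lower (0.762%). All 7 genes are among the lower genes of both, which is how they were picked, so nothing is read from it.

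**Figure D4:**
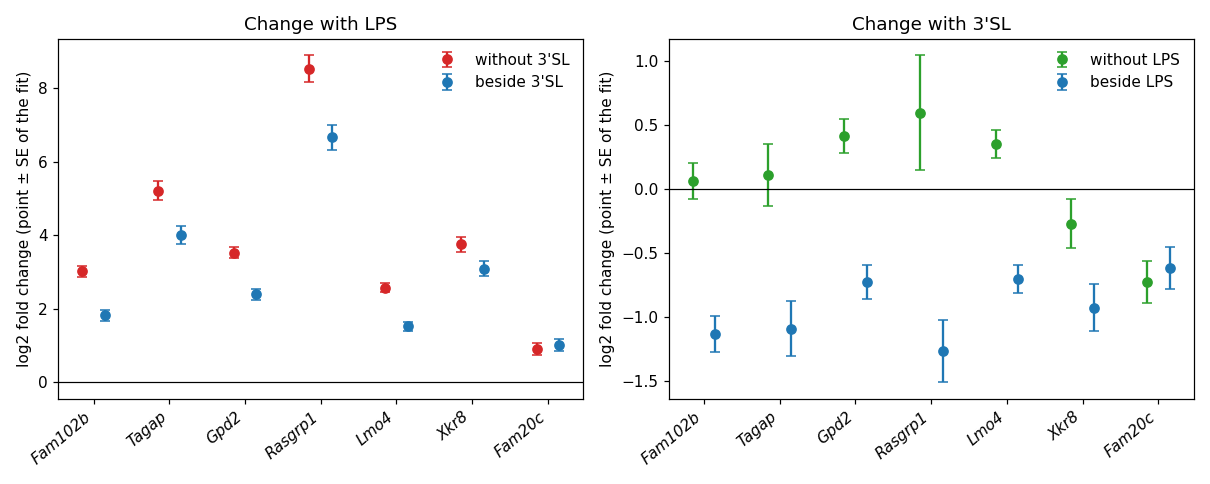
Fitted log2 fold change with LPS (left) and with 3′SL (right) for each gene, with error bars at the SE of the fit; colors give the change without and beside the other agent. The LPS change beside 3′SL lies below that without it for 6 genes, such as Fam102b at 1.82 and 3.01, while for Fam20c the values are 1.03 and 0.92; these differences were not tested.

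Beside 3′SL, all 7 genes were higher with LPS than without, but by a smaller fold for 6 of them. The fitted LPS change was 8.07-fold without and 3.53-fold beside 3′SL for Fam102b, 36.9-fold and 16-fold for Tagap, and 11.5-fold and 5.24-fold for Gpd2. It was 5.94-fold and 2.87-fold for Lmo4, 13.4-fold and 8.51-fold for Xkr8, and 368-fold and 101-fold for Rasgrp1, the last from few reads without LPS. For Fam20c alone the LPS fold was not smaller beside 3′SL. Each of these values shares a condition with the comparison that chose the genes, and the difference between folds was not tested.

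Per kilobase of exon, the order with LPS was Fam20c (128 ± 24.9 CPM/kb), Fam102b (83.4 ± 4.87), Gpd2 (51.5 ± 3.13), Lmo4 (34.3 ± 3.28), Tagap (30.2 ± 3.98), Xkr8 (27.1 ± 1.91), and Rasgrp1 (11 ± 0.656). Lmo4 and Tagap as well as Tagap and Xkr8 did not differ beyond their spread. With LPS + 3′SL the order was Fam20c (83.5 ± 11.4), Fam102b (38.0 ± 4.38), Gpd2 (31.0 ± 3.85), Lmo4 (21.1 ± 1.18), Xkr8 (14.2 ± 1.89), Tagap (14.1 ± 1.61), and Rasgrp1 (4.55 ± 0.788), with Xkr8 and Tagap at the same level within their spread. With PBS, Fam20c was far above the rest at 68.0 ± 7.23 CPM/kb and Rasgrp1 was lowest at 0.0292 ± 0.0114 CPM/kb. The place of Tagap in these orders is uncertain, since 57.5% of its 50-base words also occur in other genes.

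Across the 12 libraries, the log2 CPM of the 6 genes other than Fam20c went together, with Pearson's r of 0.967 to 0.995 between any 2 of them, against 0.786 to 0.868 with Fam20c. These values come mostly from the shared difference between conditions. After the condition means were removed, r over all pairs ranged from -0.585 to 0.712. The genes most like each one, again over 12 libraries, were Clcn7 (r = 0.997) for Fam102b, Lztfl1 (0.995) for Tagap, Abi1 (0.997) for Gpd2, and Nfkbiz (0.997) for Rasgrp1. For Lmo4 it was Gpd2 (0.994), for Xkr8 it was Erap1 (0.995), and for Fam20c it was Ctu1 at a lower 0.950. The next genes on these lists included Trim13 and Sele for Fam102b, Usp12 and Dse for Tagap, Lztfl1 and Fas for Gpd2, Mapkapk2 and Plek for Rasgrp1, Mtpn and Rnf14 for Lmo4, Idnk and Tmem128 for Xkr8, and Ciapin1 and Manbal for Fam20c. Sele averaged only 0.308 CPM, so its place rests on few reads. Condition means were not removed for these lists.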

How the data were processed

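RNA-Seq of mouse BMDMs was used as deposited. The authors deposited whole-number read counts per gene for each of 12 libraries, from a stranded poly(A) kit, and the labels name FastQC, Trimmomatic, STAR, HTSeq, and DESeq2. Genome build, annotation, and strand setting of the counting are not given in the sources used here. Gene identifiers were matched without version to GENCODE M21 (GRCm38), which named 42462 of 43626. Reads not assigned to a gene were left out (650254 to 869895 ambiguous per library).

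Counts were fitted in R 4.3.3 with edgeR 4.0.16 (filterByExpr, TMM factors, quasi-likelihood, 1 mean per condition, all 12 libraries). Calls needed a 1.5-fold change and a Benjamini-Hochberg adjusted p below 0.05 over 14308 genes. CPM use library sizes scaled by TMM, and are given per kilobase of merged exons where genes are compared. DESeq2 1.42.0 and the other alternatives are in the closing section. The scripts were tested on simulated data. The members and the lists of related genes and markers were chosen with earlier results of these data known. Named besides the members are, for each, the 3 genes with the highest correlation of log2 CPM, and relatives or partners that were called or are direct partners, some of which are not reported here. Library sets were found by clustering residuals and coincide with runs of library numbers. Same-condition libraries differed by more than sampling noise, so none was counted as a duplicate. Their difference in counts, as chi-square per gene, was 15.6 to 20.3 between replicates 1 and 2. For pairs with replicate 3, which is library set 3, it was 65.3 to 115.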

Additional observations from a re-analysis of the deposited data

Results flagged for a closer look

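Gpd2 and Lmo4 were flagged because 3′SL went in opposite directions with and without LPS in every library. For Gpd2 every 3′SL library was above every PBS library (log2 fold change 0.41) and every LPS + 3′SL library was below every LPS library (-0.73). For Lmo4 the values were 0.35 and -0.70. Of all genes, 9.02% had every 3′SL library above every PBS library. Every LPS + 3′SL library was below every LPS library for 6.50%, and this side was favored by the choice of the genes. The difference between the 2 effects was not tested, because the second effect chose the genes.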

How the results depend on the processing

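For LPS averaged over 3′SL, 152 of 153 alternative values (Rasgrp1 by its fitted change) of the 7 genes kept direction and call; Fam20c no longer passed with total counts. The count over all genes was 5391 to 5915 with single libraries left out, and 8358 with total counts. Leaving out library sets was chosen after seeing the data. For 3′SL against PBS, edgeR's 0 calls became 88 with DESeq2 (67 higher, 21 lower), 406 with library sets as a replicate block (283 higher, 123 lower), and 87 without library set 3 (73 higher, 14 lower), and stayed 0 with any single library left out. Of 159 values of the 7 genes (Rasgrp1 by its fitted change), 149 kept direction and call. Another 3 newly passed, all Fam20c (DESeq2, the block, and without library set 3). The other 7 turned. Fam102b was -0.024 with total counts, -0.031 without library set 3, and -0.067 to 0.17 with single libraries left out (lowest without PBS replicate 3). Tagap was -0.10 without library set 2 and -0.17 to 0.30 with single libraries left out (below 0 without PBS replicate 1, -0.07, or 3′SL replicate 2). Rasgrp1 was -0.11 to 0.93 (below 0 without 3′SL replicate 3). For LPS + 3′SL against LPS, 0 calls became 1 with DESeq2's size factors, 1 with total counts, 2 with all genes of at least 1 count, 113 with DESeq2, 207 with the replicate block, 149 without library set 3 (72 higher, 77 lower), and 0 to 8 with single libraries left out, 8 without 3′SL replicate 3 and 1 without PBS replicate 3. No direction turned among the 160 values of the 7 genes. The spread left between libraries, edgeR's biological coefficient of variation, was 0.310 without the block and 0.133 with it. Why the counts moved was not tested. Libraries carry no shared replicate numbers in the labels, so the block rests on the sets seen in the residuals. Requiring 10 counts in every library removed Rasgrp1. Depth limits Rasgrp1 most, which had 3 to 11 reads per library without LPS.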
